A study of Canis lupus familiaris with 8 samples.

Results

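The imprinted DLK1-DIO3 miRNA cluster of the dog was taken as all mature miRNAs of the deposited table that lie on the same chromosome as miR-495 and start within 500000 bases of it. This gave 38 miRNAs, at 40 loci, of 452 miRNAs in the table. Members were chosen by position. Signal entered only where a miRNA had more than 1 locus, since the locus of highest mean signal stood for it. Of the 38, 17 were over the table's lower limit of 1 (the floor) in 3 or more of the 8 libraries and could be tested, 13 were above it in 1 or 2 libraries, and 8 were at the floor in all 8.

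The DLK1-DIO3 domain is an imprinted region of placental mammals. DLK1, RTL1 and DIO3 are made from the paternal chromosome, while long non-coding RNAs such as MEG3, arrays of C/D box snoRNAs and the miRNAs are made from the maternal one. In the mouse the miRNAs are processed from long maternal transcripts, are abundant in embryo, placenta and brain, and fall in most other adult tissues. Their loss or gain has been described in many human cancers, and the miRNAs have been described as markers of mesenchymal and pluripotent cells.

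Small RNA was sequenced from vesicles (exosomes) shed into the medium by dog mammary cells. One library was made from each of 5 canine mammary tumour lines of carcinoma origin (the CMT group: CMT-12, CMT-27, CMT-28, CMT-47 and CMT-119) and from each of 3 samples of normal canine mammary cells (the CMEC group: CMEC1, CMEC2 and CMEC3). The labels name no treatment and no engineered allele; all cells grew without serum, and the medium came from 48 hours of culture, harvested on day 3. The labels call the CMEC samples biological replicates and do not say whether different dogs gave them, so each p-value measures only the spread among these samples. In bulk vesicle RNA, fewer cells that release a miRNA and less of it per cell cannot be told apart.

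Values are the authors' normalised signal, in which 1 read was worth 0.386 to 2.83 and anything under 1 was set to a floor of 1. The floor hides at most 2 reads of a miRNA in CMT-28, at most 1 in CMT-27, CMT-47 and CMT-119, and none in the other libraries. Recovered reads ranged from 81138 in CMT-12 and 85906 in CMEC2 to 1405893 in CMT-27. Shares below are recovered reads as a percent of the library, which the authors' scaling factor cannot move, with exact 95% binomial intervals that cover counting error only. The deposited values of CMT-27 stand high as a whole: its factor was 4.46 relative to a median-of-ratios scaling, against 0.493 to 1.24 in the other libraries. Of the epithelial markers, miR-141 was at the floor in all libraries, and miR-200c was at 5.44 to 25.5 in the CMEC samples, at 8.06 in CMT-119, 2.08 in CMT-47 and 1 in CMT-28, and at 2022 in CMT-12 and 13903 in CMT-27. miR-200a, miR-200b and miR-429 were at the floor in CMT-28, CMT-47, CMT-119 and CMEC1. Not all of the list followed them. miR-183 was at 801 to 4496 in the CMT lines, 1676 in CMEC1, and 14.2 and 40.2 in CMEC2 and CMEC3. miR-182 was at 1813 to 12045 in the CMT lines, 2108 in CMEC1, and 70.8 and 34.7 in CMEC2 and CMEC3.

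The window matched its label. Of the 38 names, 37 are on a list of miRNAs known from this domain in other mammals, miR-3958 being the exception, and none of the listed names was found elsewhere in the table. By gene ID, 37 of 38 members were found in a RefSeq gene table of another dog assembly (UU_Cfam_GSD_1.0), and all 37 lay between DLK1 and DIO3 and in the same order. miR-369 had no match. The distance limit was not close to any decision: the farthest member, miR-493, started 170813 bases from miR-495, and the nearest miRNA outside, miR-345, 672719 bases away. miR-493 was at 1 in all 8 libraries, while miR-345 was at 10.4 in CMT-27, 16.2 in CMT-12, 9.71 in CMT-47 and 1 in the rest.

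The members fell into 2 blocks on the plus strand of chromosome 8. In canFam3, as the table gives positions, the first block held 7 miRNAs from miR-493 to miR-370 (chr8:69094392-69132854) and the second 31 from miR-379 to miR-410 (chr8:69253808-69294432). The gap between neighbouring starts was 120975 bases between the blocks and at most 26218 bases elsewhere. The first block contains miR-433, miR-127 and miR-136, which in the mouse lie antisense to Rtl1, and the reference table lists RTL1 directly before miR-433. There, 52 snoRNA genes and no miRNA gene lie between the blocks. The second block corresponds to the miR-379/miR-410 cluster, whose deletion in mice disturbs the switch of energy metabolism at birth. The exons and introns of the dog's host transcripts were not analysed here.

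The cluster was a small part of every library, and its share differed more within each group than between the group means. It held 0.267% of the reads in CMT-27 (interval 0.258% to 0.275%) and 0.264% in CMT-12 (0.230% to 0.301%), shares that counting error does not separate. The likeness is of shares of all recovered reads, of which miR-21 made up 49.6% in CMT-27 and 24.9% in CMT-12. CMEC1 followed with 0.116% (0.106% to 0.127%). CMT-47 had 0.0205% (0.0178% to 0.0234%), CMEC3 0.0147% (0.0110% to 0.0193%), CMT-119 0.0139% (0.0109% to 0.0174%) and CMEC2, on 8 reads in all, 0.00931% (0.00402% to 0.0183%). The intervals of CMEC3, CMT-119 and CMEC2 overlap. In CMT-28 all 38 members were at the floor.

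**Figure D1:**
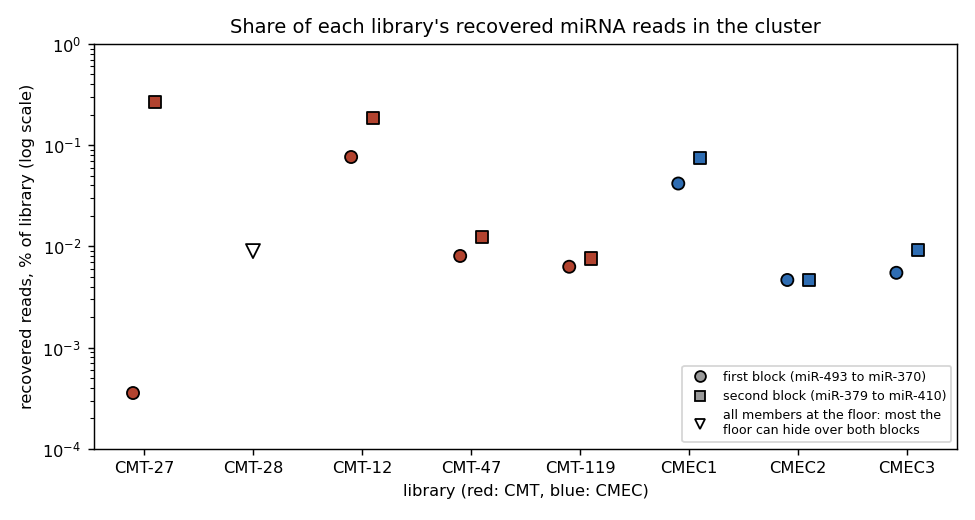
Percent of each library's recovered miRNA reads (log axis) in the first block (circles) and the second block (squares) of the cluster, for 5 CMT libraries (red) and 3 CMEC libraries (blue). CMT-27, at 0.267% over both blocks, has a first block of 0.000356%, far under its second block; the open triangle marks the most that the floor can hide in CMT-28, 0.00898%.

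CMT-28 was not a shallow library. It had 845889 recovered reads, and 152 of 414 other miRNAs, or 36.7%, were above the floor there, within the 32.9% to 44.2% of the other libraries. Its floor can hide at most 76 reads over the cluster, a share of 0.00898%. Its summed share was therefore under those of CMT-27, CMT-12, CMEC1, CMT-47, CMEC3 and CMT-119, but the floor does not separate it from the 0.00931% of CMEC2.

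The number of members above the floor was 26 in CMT-27, 22 in CMEC1, 15 in CMT-12, then 12 in CMT-47 and 11 in CMT-119, 8 in CMEC3, 5 in CMEC2 and 0 in CMT-28. These counts depend on depth, so members were counted again at 1 common level, the share of 1 read in CMT-12 (0.00123%), which is over the floor of each library. At that level there were 17 members in CMT-27, 16 in CMEC1, 15 in CMT-12, 6 in CMT-47, 6 in CMEC3, 4 in CMT-119, 3 in CMEC2 and 0 in CMT-28. The order of the libraries was the same except that CMEC3 moved over CMT-119, with CMT lines at both ends and CMEC1 beside the 2 highest lines. Other miRNAs at that level numbered 114 in CMEC3 to 153 in CMT-12, a much narrower range, with 125 in CMT-28.

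**Figure D2:**
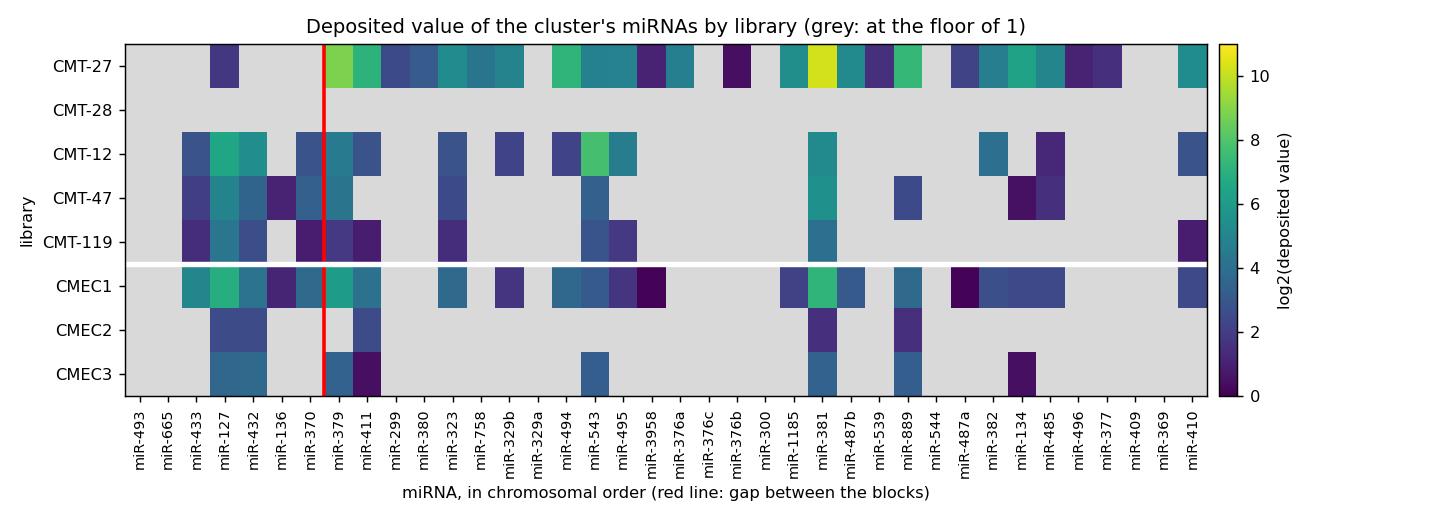
Deposited value (log2 colour scale) of the 38 members in chromosomal order, one row per library, with values at the floor of 1 in grey and the gap between the blocks as a red line. CMT-27 fills 25 of the 31 members of the second block but 1 of the 7 of the first, and CMT-28 is grey throughout.

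In the first block, miR-127 had the highest mean value. Its deposited value was 88.1 in CMT-12, 19.7 in CMT-119, 29.8 in CMT-47, 3.46 in CMT-27 and 1 in CMT-28, and it was 116 in CMEC1, 5.67 in CMEC2 and 12.5 in CMEC3. The groups overlapped, with CMT-12 and CMEC1 high, CMT-27 and CMT-28 lowest, and the others between. As shares, miR-127 had 0.0468% in CMT-12 (0.0331% to 0.0643%) and 0.000356% in CMT-27 (0.000115% to 0.000830%), where it rested on 5 reads.

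miR-432, the next most abundant miRNA of the block, was at 41.7 in CMT-12, 6.27 in CMT-119, 11.8 in CMT-47 and the floor in CMT-27 and CMT-28, against 18.5 in CMEC1, 5.67 in CMEC2 and 13.9 in CMEC3. miR-433, described in human neurons as a repressor of FGF20, was at 32.6 in CMEC1 and at 2.69, 4.16 and 6.96 in CMT-119, CMT-47 and CMT-12. miR-370, described in human liver cells as a repressor of CPT1A, was at 14.1 in CMEC1, 10.4 in CMT-47, 6.96 in CMT-12 and 1.79 in CMT-119. Both were at the floor in the same 4 libraries, CMT-27, CMT-28, CMEC2 and CMEC3. miR-136 was seen in CMT-47 (2.08) and CMEC1 (2.18), on 3 and 2 reads, and miR-493 and miR-665 in no library.

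In the second block, miR-381 was the most abundant member over the libraries. It stood at 1220 in CMT-27, 37.1 in CMT-12, 16.1 in CMT-119, 45.8 in CMT-47 and 1 in CMT-28, and at 147 in CMEC1, 2.83 in CMEC2 and 11.1 in CMEC3. CMT-27 was far over the rest, and the other CMT lines lay within or under the CMEC range. It ranked 50th among the 209 miRNAs above the floor in CMT-27 and 61st of 199 in CMEC1, and 85th or lower in the other libraries where it was seen. Its share was 0.125% in CMT-27 (0.120% to 0.131%) and 0.0334% in CMEC1 (0.0280% to 0.0395%).

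miR-379, at the start of the block and described in human breast cancer cells as a repressor of cyclin B1, had the same leaders. It was at 456 in CMT-27, 23.2 in CMT-12, 3.58 in CMT-119, 18.7 in CMT-47 and 1 in CMT-28, against 68.5 in CMEC1, 1 in CMEC2 and 11.1 in CMEC3. Its neighbour miR-411 was at 138 in CMT-27 and 17.4 in CMEC1, and at 6.96 or less in the other 6 libraries.

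miR-494, miR-889 and miR-134 were also concentrated in CMT-27. miR-494 was at 147 in CMT-27, 13.1 in CMEC1 and 4.64 in CMT-12, and at the floor in the other 5 libraries. miR-889 was at 163 in CMT-27, 14.1 in CMEC1, 9.70 in CMEC3, 5.55 in CMT-47 and 2.83 in CMEC2, and at the floor in CMT-28, CMT-12 and CMT-119. miR-134, which in rat neurons represses Limk1 and limits the size of dendritic spines, was at 80.2 in CMT-27, 5.44 in CMEC1, 1.39 in CMT-47 and 1.39 in CMEC3, with 4 libraries at the floor. CMT-27 was the highest and CMEC1 the next in each of these.

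The remaining tested members at the far end and middle of the block were lower. miR-485, described in rat hippocampal neurons as a repressor of SV2A, was at 31.8 in CMT-27, 5.44 in CMEC1, 2.78 in CMT-47 and 2.32 in CMT-12. miR-323, miR-329b and miR-410 were at 39.4, 30.4 and 40.8 in CMT-27, at 14.1, 3.26 and 5.44 in CMEC1, and at 6.96 or less elsewhere. miR-382 was at 26.3 in CMT-27, 16.2 in CMT-12 and 6.53 in CMEC1 and at the floor in the other 5 libraries.

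miR-543 and miR-495, neighbours in the middle of the block, had another order of libraries. miR-543, which in the mouse acts on N-cadherin in developing neurons, was at 218 in CMT-12, 28.4 in CMT-27, 10.4 in CMT-47, 7.16 in CMT-119 and 1 in CMT-28, against 8.70 in CMEC1, 1 in CMEC2 and 9.70 in CMEC3. It was the only tested member of the block with its highest deposited value outside CMT-27. Its share was 0.116% in CMT-12 (0.0936% to 0.142%) and 0.00292% in CMT-27 (0.00209% to 0.00396%). miR-495, described in human breast cancer cells as a repressor of E-cadherin, was at 29.1 in CMT-27, 25.5 in CMT-12, 3.58 in CMT-119, 3.26 in CMEC1 and at the floor in the other 4 libraries. As a share it too was highest in CMT-12, at 0.0136% (0.00677% to 0.0243%) against 0.00299% in CMT-27 (0.00215% to 0.00404%), as was miR-382. Of the 13 tested members of the second block, 10 had their highest share in CMT-27 and 3 in CMT-12. For miR-323, miR-329b and miR-410 the CMT-27 and CMT-12 shares were close. They were 0.00405%, 0.00313% and 0.00420% in CMT-27. In CMT-12 they were 0.00370%, 0.00246% and 0.00370%, on 3, 2 and 3 reads.

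The 13 members seen in 1 or 2 libraries were almost all from the second block of CMT-27. miR-299, miR-380, miR-758, miR-376a, miR-376b, miR-539, miR-496 and miR-377 were above the floor in CMT-27 alone, and miR-3958, miR-1185, miR-487b and miR-487a in CMT-27 and CMEC1. Their values in CMT-27 ran from 1.38 (miR-376b) to 43.6 (miR-1185), and 4 of these 12 were over the common level of 0.00123%. That level is 1 read in CMT-12, and the 4 ran from 0.00199% (miR-758) to 0.00448% (miR-1185). Whether members of this list were absent from CMT-12 and CMEC2 could therefore not be told at this depth. miR-376a, whose precursors are edited in human brain, has 3 loci with identical values of 26.98 in CMT-27, and reads from these copies cannot be assigned to 1 locus. All 17 members of the second block above the floor in CMEC1 were also above it in CMT-27, which is 100% of the CMEC1 list and 68% of that of CMT-27. Besides miR-493 and miR-665, the members at the floor in each library were miR-329a, miR-376c, miR-300, miR-544, miR-409 and miR-369.

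The make-up of the cluster separated CMT-27 from the other libraries. In CMT-27 the first block held 5 of 3749 cluster reads, 0.133% (0.0433% to 0.311%). In the other libraries with reads it held 29.0% (CMT-12) to 50.0% (CMEC2, 4 of 8 reads), with 39.3% in CMT-47 (32.7% to 46.1%), 45.3% in CMT-119 (33.8% to 57.3%), 35.96% in CMEC1 (31.6% to 40.5%) and 37.3% in CMEC3 (24.1% to 51.9%). Even if the floor hid a read of each of the 6 members at the floor, the first block would have 0.000782% of the CMT-27 library, under the 0.00466% of CMEC2. Relative to CMEC1, CMT-27 had 3.58-fold the share of the second block. CMEC1 in turn had 118-fold the first-block share of CMT-27 on its 5 reads, and 53.4-fold if the floor hid those 6 reads. Each ratio compares 2 libraries.

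**Figure D3:**
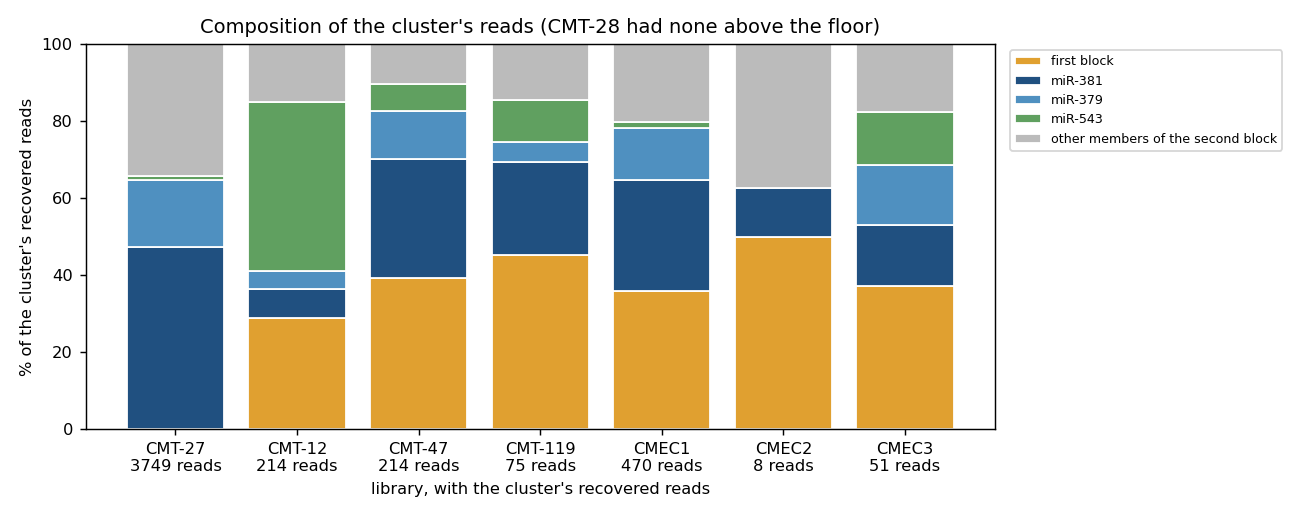
Percent of the cluster's recovered reads in the first block and in miR-381, miR-379, miR-543 and the other members of the second block, for the 7 libraries with reads (totals under the bars). The first block is 0.133% in CMT-27 and 29.0% to 50.0% in the others, and miR-543 makes up 43.9% in CMT-12.

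Within the second block, taken alone, miR-381 held like shares in most libraries and miR-543 did not. Of the block's recovered reads, miR-381 had 47.1% in CMT-27 (45.5% to 48.7%), 50.8% in CMT-47 (41.9% to 59.6%), 43.9% in CMT-119 (28.5% to 60.3%) and 44.9% in CMEC1 (39.1% to 50.7%), and these intervals overlap. It had less in CMT-12, at 10.5% (6.14% to 16.5%). In CMEC3 it had 25.0% on 8 of 32 reads (11.5% to 43.4%), an interval that overlaps those of CMT-47, CMT-119 and CMEC1. miR-543 had 61.8% of the block in CMT-12 (53.6% to 69.6%), 21.9% in CMEC3 (9.28% to 40.0%), 19.5% in CMT-119 (8.82% to 34.9%), 11.5% in CMT-47 (6.60% to 18.3%), 2.66% in CMEC1 (1.15% to 5.17%) and 1.10% in CMT-27 (0.787% to 1.48%). Both groups thus held libraries with a high and with a low share of miR-543, and CMT-12 stood over all others. CMEC2 had 4 reads in the block, too few to place it. CMT-12 and CMT-27, where the cluster as a whole had like shares of all recovered reads, had different leading members. Reads hidden by the floor are not in these totals; they could add up to 24 reads to the block in CMT-47 and in CMT-119.

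Members of a block varied together across the libraries, and how far the blocks varied with each other depended on 1 library, CMT-27. On log2(value + 1) minus the library median, the median Spearman correlation over pairs was 0.79 for the 6 pairs of tested members within the first block and 0.53 for the 78 pairs within the second. It was 0.06 for the 52 pairs across the blocks and 0.05 for all 18528 pairs of tested miRNAs. Without CMT-27 the pairs across the blocks had a median of 0.43, against 0.04 for all tested pairs, and those within the second block 0.39. On deposited values without centring, the pairs across the blocks were at 0.25 over all libraries, where all tested pairs were at 0.24, and at 0.75 without CMT-27, where all tested pairs were at 0.11. Pairs within the second block were there at 0.76 over all libraries and 0.64 without CMT-27. Pearson's correlation on the centred scale had a median of -0.26 across the blocks with all libraries and 0.43 without CMT-27. These are descriptions over 8 or 7 libraries; members at the floor in the same library share its median, and pairs share depth.

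Tumour lines and normal samples were then compared in 1 limma fit over all 193 tested miRNAs. None of the 17 tested members passed an adjusted p of 0.05, and neither did any other miRNA (0% of 193). At an unadjusted p under 0.05 there were 0 of 17 members, where the share over all tested miRNAs was 10.9%. The deposited values of the groups overlapped for each of the 17 members, while 9.33% of all tested miRNAs had groups that did not overlap. limma-voom on recovered reads also called 0 miRNAs.

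The largest differences upward were those of miR-543, at a log2 difference of 1.47 ± 1.42 (SE, limma adjusted p = 0.708), and miR-495, at 1.40 ± 1.02 (limma adjusted p = 0.564), both higher in CMT. Downward they were miR-432, at -0.85 ± 1.20 (limma adjusted p = 0.769), and miR-127, at -0.66 ± 1.47 (limma adjusted p = 0.807). miR-381 was at 0.98 ± 1.79 and miR-379 at 0.61 ± 1.68, with the widest errors of the members. The standard error exceeded the size of the difference in 15 of 17 members, the exceptions being miR-543 and miR-495, so the fit neither separates the groups nor shows them alike.

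**Figure D4:**
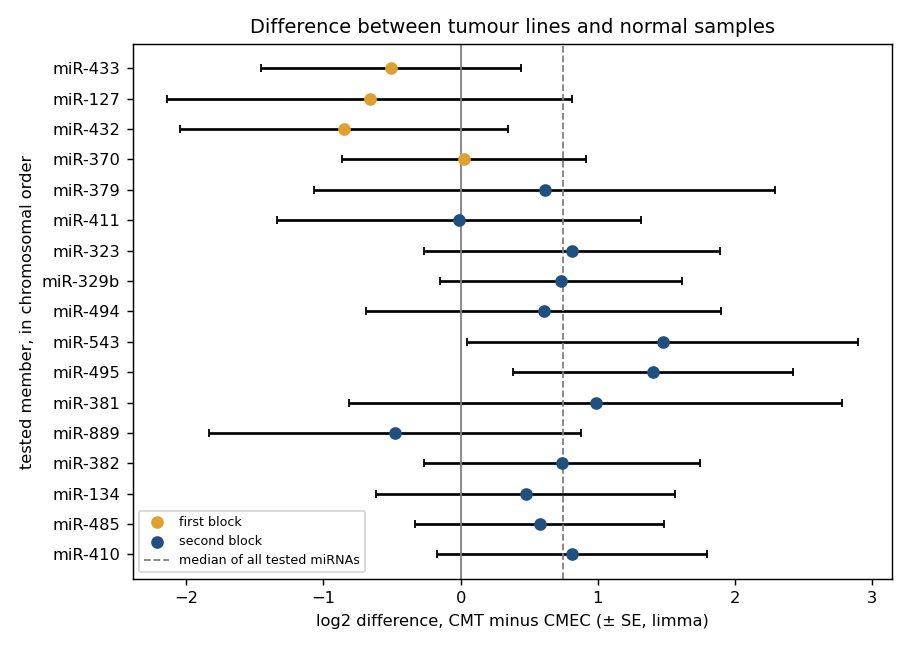
limma log2 difference, CMT (5 libraries) minus CMEC (3 libraries), of the 17 tested members in chromosomal order, with standard errors; the dashed line is the median of all 193 tested miRNAs, 0.75. The 4 members of the first block lie left of the dashed line, and the standard error exceeds the size of the difference in 15 of 17 members.

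The median log2 difference was 0.60 over the tested members and 0.75 over all tested miRNAs. In the first block 4 of 4 tested members lay under the median of all, with a block median of -0.59, and in the second block 5 of 13 lay over it, with a block median of 0.73. The sign of single members rests on the scale: the median of all tested miRNAs was 0.75 on the deposited scale and -0.09 once each library was centred on its median. It was 0.13 with quantile normalisation and -0.33 with voom. The median of the tested members turned below 0 on each of these scales, to -0.23, -0.012 and -1.10, with 5, 7 and 1 of the 17 over the median of all. It also rests on single libraries. With CMT-27 left out, the median of the tested members was -0.26, and with CMEC1 left out it was 1.07. miR-127 moved from -0.66 to 0.55 without CMEC1 and 0.03 without CMT-28. miR-381 was at -0.27 without CMT-27 and -0.17 without CMEC2.

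The spread among the CMT lines was larger for the members than for other miRNAs, mainly through the second block. The median SD on the log2 scale was 1.94 for the 17 tested members and 1.41 for the other 176 tested miRNAs over the 5 CMT lines, and 1.36 and 0.98 over the 3 CMEC samples. Over the CMT lines it was 1.53 in the first block and 2.36 in the second. Over the CMEC samples the order was reversed, at 1.92 and 1.10. This is a description of these libraries. The CMT lines had a mean cluster share of 0.113% ± 0.139 (SD, n = 5) and the CMEC samples one of 0.0468% ± 0.0602 (SD, n = 3), so both SDs were larger than the means.

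Markers of cell types also differed between the libraries. The 4 mesenchymal and smooth muscle markers (miR-143, miR-145, miR-199 and miR-214) together held 0.0152% in CMT-27 and 0.255% in CMT-12, the libraries with the highest cluster shares, and 1.68% in CMEC1. They held 4.40% in CMT-28, 6.004% in CMT-119, 13.9% in CMT-47, 13.0% in CMEC3 and 18.6% in CMEC2. miR-214 was at the floor in CMT-27, CMT-47, CMT-119 and CMEC1, and miR-145 in CMT-12. In each library miR-143 made up most of the sum, at 129 in CMT-27, 459 in CMT-12 and 100702 in CMT-47. miR-199 had another order of libraries. It was at 1623 in CMEC2, 1616 in CMT-28, 1097 in CMEC3 and 129 in CMEC1. In the other CMT lines it was lower, at 18.5 in CMT-12, 17.3 in CMT-27, 12.5 in CMT-47 and 4.48 in CMT-119. The 10 epithelial markers held 5.37% in CMT-12 and 3.44% in CMT-27, against 0.0202% (CMEC3) to 1.09% (CMT-28) in the other libraries. By summed share, CMT-28, with no member of the cluster above the floor, was at neither end of the libraries for either list. Its mesenchymal share came mainly from miR-143, and its epithelial share from miR-182 (2609) and miR-183 (801). By miR-199 alone, CMT-28 was the highest of the CMT lines. Of the 10 epithelial markers, 9 were above the floor in CMT-27 and CMT-12, 4 in CMT-28 and CMEC3, and 6 in the others. CMT-28 thus had, with CMEC3, the fewest, and miR-200a, miR-200b, miR-200c, miR-141, miR-429 and miR-205 were at the floor there. None of the 4 mesenchymal markers and 0 of the 7 tested epithelial markers passed the limma threshold; miR-199, miR-214, miR-183 and miR-182 had an unadjusted p under 0.05. Their part in the cluster's level was not tested.

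The blood cell markers were low and the neural list rested on miR-9. The 4 blood cell markers summed to 0.000247% (CMEC1) to 0.101% (CMT-12), with miR-223 at the floor in all libraries and miR-451, the red cell miRNA, at 41.7 in CMT-12, 25.5 in CMEC2, 8.32 in CMEC3, 1.79 in CMT-119 and the floor in the other 4. Of the neural markers, miR-124 was at most 8.70 (CMEC1) and at the floor in CMT-27. miR-9 was at 5597 in CMT-27, at 121 to 406 in the other CMT lines, at 251 in CMEC1 and at 2.83 and 4.16 in CMEC2 and CMEC3 (log2 difference 4.81 ± 1.498, limma adjusted p = 0.196, unadjusted p = 0.0053). The neural list held 0.576% of CMT-27, more than the cluster's own 0.267%. The part of either list in the cluster's level was not tested.

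Other imprinted miRNAs gave little to set beside the cluster. Of 5 names fixed, 2 were matched in the table. miR-483, which lies within IGF2, was at the floor in all libraries. miR-335, which lies within MEST, was at 201 in CMT-27, 12.5 in CMT-47, 7.16 in CMT-119, 6.96 in CMT-12 and 1.16 in CMT-28, and at 5.67 in CMEC2, 4.16 in CMEC3 and 3.26 in CMEC1 (log2 difference 1.31 ± 1.32, limma adjusted p = 0.712). CMT-27 was the highest and CMT-28 the lowest library for miR-335, and CMEC1 was the lowest of the CMEC samples.

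The 5 miRNAs outside the window whose profile was most like the mean of the tested members were miR-6529, miR-421, miR-425, miR-32 and miR-660, with Spearman correlations over the 8 libraries, on log2(value + 1) minus the library median, of 0.90, 0.88, 0.83, 0.69 and 0.50. They lie on chromosomes 33, X, 20, 11 and X. miR-6529 was at 42.2 in CMT-27, 102.0 in CMT-12, 17.4 in CMEC1, 9.70 in CMEC3, 6.94 in CMT-47, 3.58 in CMT-119, 2.70 in CMT-28 and 1 in CMEC2. miR-425 was at 331 in CMT-27, 95.1 in CMT-12, 33.7 in CMEC1 and 2.70 in CMT-28. All 5 were picked as the highest of 176 correlations, and they share the scaling of the libraries with the members.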

How the data were processed

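Vesicle small RNA of 5 CMT and 3 CMEC libraries was measured. The authors deposited 1 linear normalised signal per locus, with a floor of 1, for 511 loci. The submitters' processing notes name canFam3; for the aligner, counter, annotation and normalisation, each is not given in the sources used. From the values, 99.0% to 100% of those above the floor were whole multiples of 1 step per library (tolerance 0.05 steps), read here as single reads. Where a miRNA had more than 1 locus, that of highest mean signal stood for it.

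The 193 miRNAs over the floor in 3 or more libraries were fitted as log2(value + 1) with limma 3.58.1 (trend) in R 4.3.3, with Benjamini-Hochberg adjustment over all. Such fold changes understate those of low miRNAs. The fit was tested on simulated data. A planned count test was not run, since the floor removes low reads; limma-voom on recovered reads, scaled by median of ratios, was. Other alternatives were the pseudocount, filter, scaling, trend, sum of loci and each library left out. Named were all tested members, those in 1 or 2 libraries, the fixed lists and the 5 most alike miRNAs. The members and lists were chosen with earlier results of these data known. The spike-in was not analysed here.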

Additional observations from a re-analysis of the deposited data

Results flagged for a closer look

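Each of 21 results was checked for 1 CMT line lying far outside the other 4, and 5 results had one. Chance gives about 1 in 20 where values have no floor, and members of a cluster are not independent. Where several lines sit at the floor that rate need not hold, since the floor narrows the spread among them. With 3 samples, the CMEC group was not checked. On the log2(value + 1) scale, CMT-27 stood far over the next line for miR-494 (7.21 against 2.50), miR-889 (7.35 against 2.71), miR-134 (6.34 against 1.26) and miR-485 (5.04 against 1.92). CMT-28 and CMT-119 were at the floor for each of these miRNAs. These 4 flags rest on deposited values, which stand high throughout CMT-27 (factor 4.46). The part of that scaling in the flags was not tested, and shares of single members were not screened. By share, CMT-27 was also the highest library for all 4. For miR-485, however, its share of 0.00327% compares with 0.00123% from a single line, CMT-12, that had 1 read. CMT-12 stood far over the next line in its share of the first block, at 0.0764% against 0.00804% in CMT-47.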

How the results depend on the processing

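No paired analysis was made, since the labels pair no CMT line with a CMEC sample. The quasi-likelihood count test on recovered reads was planned and not run, and no member was above the floor in all 8 libraries, so that filter gave no value for members. In each of the 17 fits 0 members passed. Over all miRNAs 0 passed except without CMEC1; leaving out 1 library gave 0 to 6 calls. The median difference of the tested members was -1.10 with voom, and ran from -0.26 to 1.07 with 1 library left out. The difference in members above the floor ran from -2.20 to 6.30, in mean share from 0.0278 to 0.101 percentage points, and the members' median correlation from 0.30 to 0.43.

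Signs of single members reversed as follows. With a pseudocount of 10, miR-370 was at -0.055, miR-411 at 0.27 and miR-889 at 0.16. After median centring, miR-370 was at -0.81, miR-379 -0.22, miR-323 -0.024, miR-329b -0.10, miR-494 -0.23, miR-382 -0.097, miR-134 -0.36, miR-485 -0.26 and miR-410 -0.025. After quantile normalisation, miR-370 was at -0.076, miR-379 -0.13, miR-381 -0.012 and miR-134 -0.13. With voom, miR-370 was at -1.92, miR-379 -1.10, miR-323 -0.33, miR-329b -0.996, miR-494 -1.09, miR-543 -0.34, miR-495 -0.13, miR-381 -0.69, miR-382 -1.10, miR-134 -1.35, miR-485 -0.74 and miR-410 -0.63. With 1 library left out, ranges were -1.19 to 0.85 for miR-433, -1.52 to 0.55 for miR-127, -0.46 to 0.997 for miR-370, -0.67 to 1.89 for miR-379, -1.11 to 0.72 for miR-411, -0.27 to 2.46 for miR-381, -0.58 to 0.99 for miR-134 and -0.15 to 1.14 for miR-485. The causes were not tested. Counting at the common share was added after seeing the data. Depth limits CMEC2, with 8 cluster reads.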
